A study of Homo sapiens with 16 samples.

Results

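The genes described here are 39 human genes that fold, check and dispose of proteins in the endoplasmic reticulum (ER): chaperones, disulfide oxidoreductases, genes of ER-associated degradation (ERAD), stress sensors and the translocation channel. They were chosen by name, and all 39 were matched through their Ensembl identifiers among the 58302 identifiers of the expression table. UM-UC-3 is an established human bladder cancer cell line, and NAT10 is the acetyltransferase that writes N4-acetylcytidine (ac4C) on RNA. Cells carried either a control siRNA or an siRNA against NAT10, 1 sequence per arm, each transfected at 75 nM and taken after 48 h; the series' title places them in work on resistance to cisplatin. RNA-seq values came from 2 control and 2 NAT10-si libraries (replicates 2 and 3 of each arm), and transcripts with ac4C came from 4 peak lists of acRIP, the immunoprecipitation of ac4C-bearing RNA, with 1 list per arm in a first round and 1 per arm in a second, replicate round. Libraries of T24, the other cell line, and the earlier RNA-seq pair of UM-UC-3 were not analysed here. Whether replicates were grown apart is not stated, and all p-values therefore reflect the spread between these libraries alone, which may be technical.

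Proteins bound for the cell surface, the secretory pathway or the outside enter the ER through the Sec61 channel and fold there with the help of Hsp70 and Hsp90 chaperones, lectin chaperones that read N-glycans, and enzymes that make and rearrange disulfide bonds. Chains that do not fold are drawn back through the membrane by the ERAD ligase complex and destroyed by the proteasome. When unfolded chains pile up, the membrane sensors ATF6, IRE1 and PERK start the unfolded protein response, in which ATF6 and the spliced form of XBP1 bind ER stress response elements in the promoters of many chaperone genes.

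The values are FPKM, counted reads scaled to the length of the gene and to the total of the library, so that levels can be set side by side between genes. Whole gene lengths came back for 95.1% of 2320 genes checked (within 0.02 bases) when the total of control replicate 2 was put at 36588990 counted reads. The other totals were 19581204 for control replicate 3, 18940349 for NAT10-si replicate 2 and 17882152 for NAT10-si replicate 3. Over the 4 libraries, between 109 and 58697 recovered reads stood behind each value of the 38 members that were tested. NAT10 itself fell from 19.0 and 17.6 FPKM with control siRNA to 4.04 and 3.84 FPKM with NAT10 siRNA. Of 14 luminal urothelial markers 6 reached a mean of 1 FPKM, among them KRT8 and KRT18, while UPK3A was listed at 0 in every library. Of 9 basal markers only CD44 did, at 103 to 106 FPKM, and of 6 mesenchymal genes of cultured lines 5 did, led by VIM. Of 20 plasma and B cell markers 16 were above 0 in at least 1 library, with a summed level of 1.27 and 0.184 FPKM in control replicates 2 and 3 against 67.9 and 16.2 FPKM in NAT10-si replicates 2 and 3. MS4A1, IGLC1 and TNFRSF17 were at 0 throughout. Of 15 intestinal markers 14 were above 0 in at least 1 library, with sums of 1.40 and 1.62 FPKM against 29.2 and 7.20 FPKM. The summed markers of the exocrine pancreas, another tissue rich in ER, were between 0.141 and 0.60 FPKM in the 4 libraries. Other immune markers summed to 1.29 and 1.24 FPKM against 4.24 and 4.35 FPKM, luminal markers to 118 FPKM in both controls against 91.2 and 86.5 FPKM, and mesenchymal genes to 733 and 715 FPKM against 542 and 568 FPKM. Such sums weight abundant genes most and do not give the direction of most genes in these lists. Gene by gene, the median log2 change was 0.22 over the 6 luminal markers tested, of which 1 rose and 1 fell. It was 0.28 over the 5 mesenchymal genes tested, of which 3 rose and 1 fell. What part these shifts in markers have in the differences below was not tested.

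Most of the ER genes were higher after NAT10 siRNA. Of the 38 members with a mean of at least 1 FPKM, 24 rose and 5 fell at an adjusted p of 0.05 (limma on log2(FPKM + 1), Benjamini-Hochberg over all 14004 genes tested), and 9 did not pass. Over all genes tested 27.9% were called higher and 27.9% lower, 55.8% in either direction. The median log2 change of the members tested was 0.33, beside 0.01 for all genes tested. Arms did not overlap for 35 of the 38, of which 28 were higher and 7 lower with NAT10 siRNA, against 80.4% of all genes tested (40.4% higher and 40.1% lower). Only HSPA5, HERPUD1 and DNAJB9 changed by a log2 value of 1 or more, as did 3.01% of all genes tested in the upward direction. In bulk RNA, a change in the share of cells that express a gene and a change in RNA per cell cannot be told apart. Without NAT10-si replicate 2, the library with most plasma cell and intestinal markers, no called member's log2 change reversed in sign. NAT10-si replicate 3 also lay above both controls in these marker sums, at 16.2 and 7.20 FPKM. Leaving out replicate 2 therefore cannot tell the marker shift and the siRNA apart.

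**Figure D1:**
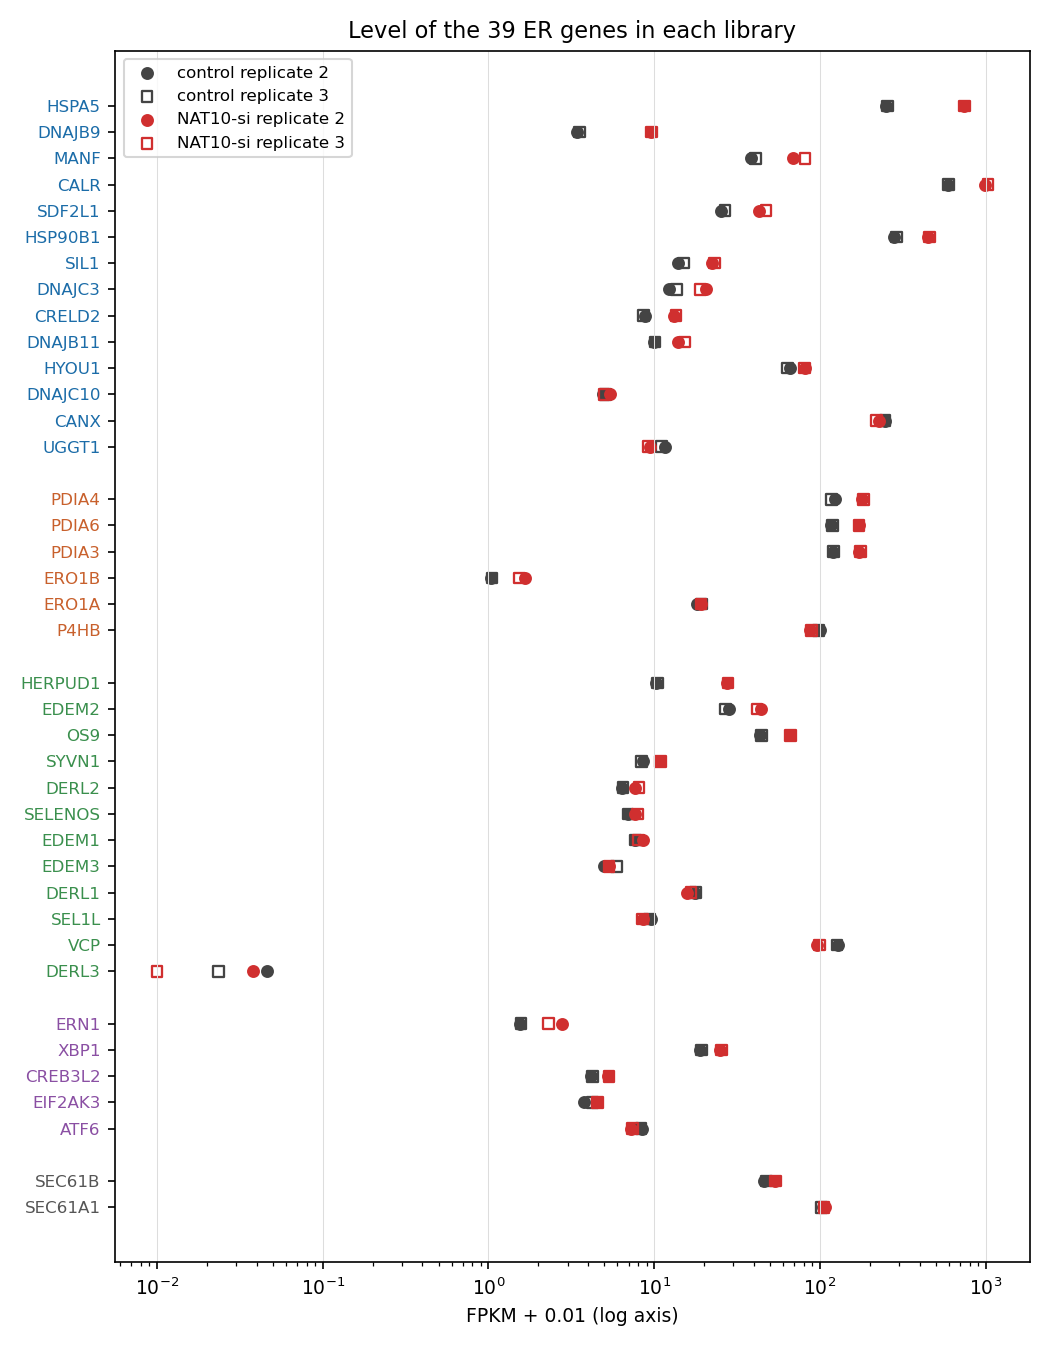
FPKM (plus 0.01, log axis) of the 39 ER genes in the 2 control (grey) and 2 NAT10-si (red) libraries, circles for replicate 2 and squares for replicate 3, grouped by role and ordered within a role by log2 change. HSPA5 lies near 250 FPKM in control and above 736 FPKM in NAT10-si libraries, and DERL3 stays below 0.05 FPKM everywhere.

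**Figure D2:**
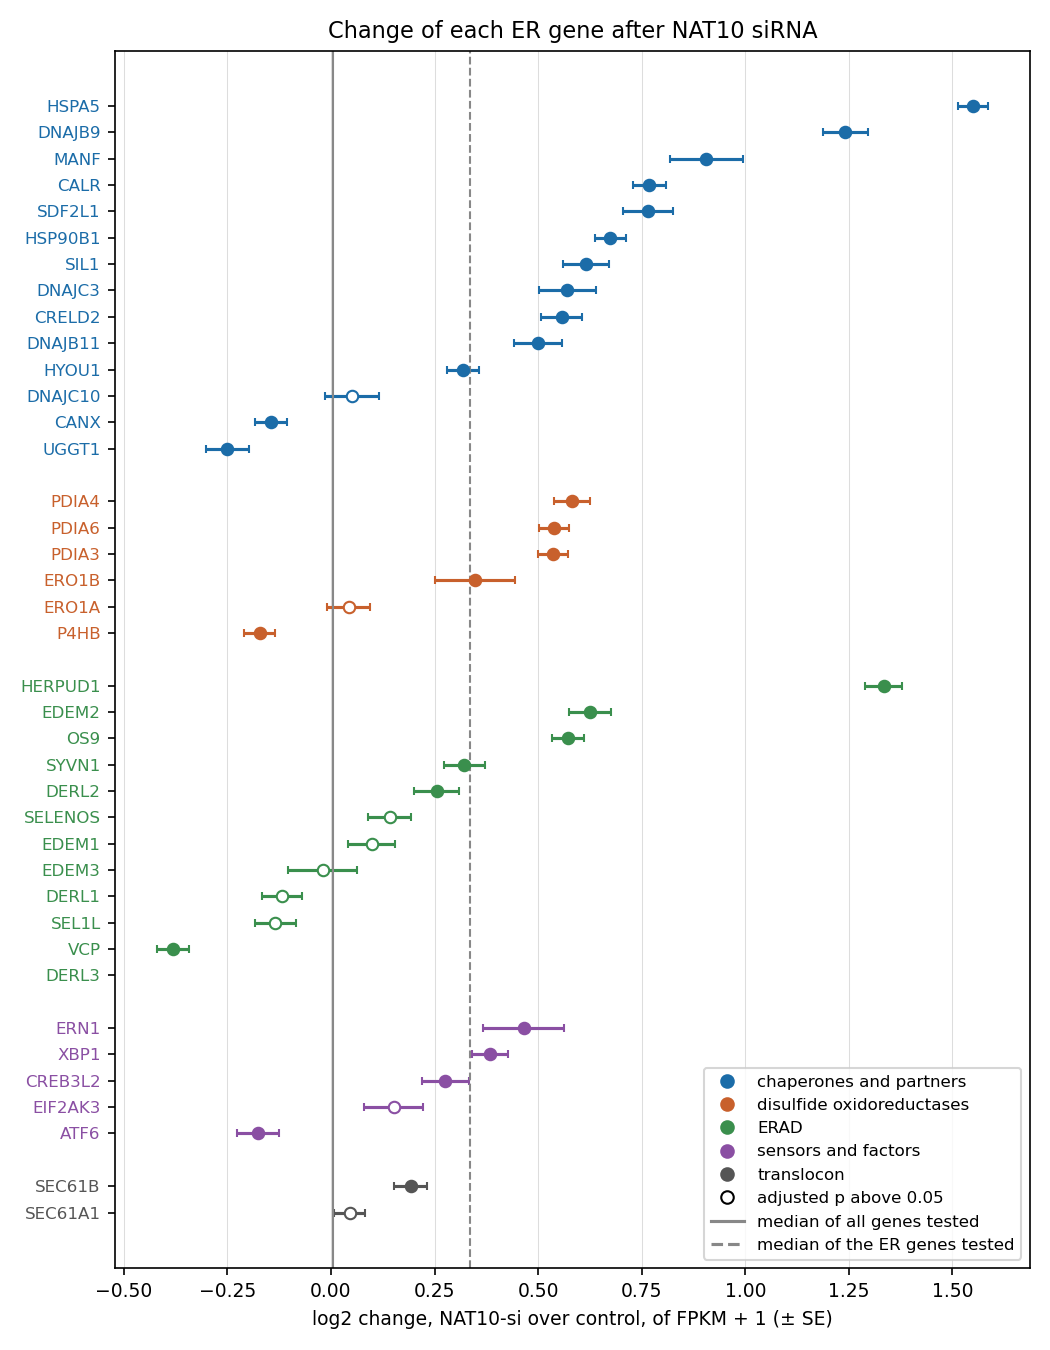
Log2 change of FPKM + 1 after NAT10 siRNA for the 38 ER genes tested, with its standard error. Filled points passed an adjusted p of 0.05; 24 lie to the right of zero and 5 to the left, and the dashed line marks the median of these genes at 0.33 beside 0.01 for all genes tested.

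Chaperones had the highest median change of the role groups. Of 14 chaperones and their partners 11 rose, 2 fell and 1 did not pass, with a median log2 change of 0.59. HSPA5 encodes BiP, the Hsp70 that binds unfolded chains and holds the stress sensors inactive. It stood at 249 and 255 FPKM with control siRNA and at 736 and 745 FPKM with NAT10 siRNA, a log2 change of 1.55 ± 0.04 (SE; limma adjusted p = 6.0e-05). DNAJB9 (ERdj4), a J-domain partner of BiP, rose from 3.39 and 3.53 FPKM to 9.49 and 9.60 FPKM (log2 change 1.24 ± 0.05 SE, limma adjusted p = 0.000167). Both genes had tight replicates, with arms far apart.

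MANF, a small secreted ER stress protein that binds BiP, rose from 38.1 and 40.9 FPKM to 68.8 and 81.3 FPKM (log2 change 0.91 ± 0.09 SE, limma adjusted p = 0.000950). Its NAT10-si libraries differed more than those of the other chaperones that rose. CALR, the soluble lectin chaperone calreticulin, was the most abundant member in both arms and rose from 591 and 595 FPKM to 989 and 1033 FPKM (log2 change 0.77 ± 0.04 SE, limma adjusted p = 0.000215). SDF2L1, a partner of the BiP cycle, rose from 25.4 and 26.7 FPKM to 42.9 and 47.1 FPKM (log2 change 0.76 ± 0.06 SE, limma adjusted p = 0.000572). HSP90B1, the ER Hsp90 GRP94, rose from 280 and 288 FPKM to 450 and 457 FPKM (log2 change 0.67 ± 0.04 SE, limma adjusted p = 0.000243). For each of these 3 genes the libraries of an arm lay close together and the arms did not overlap. SIL1, a nucleotide exchange factor of BiP, was at 13.9 and 15.0 FPKM in control and 22.3 and 23.1 FPKM in NAT10-si libraries. DNAJC3 (P58IPK), a J-domain protein that also curbs PERK, was at 12.3 and 13.6 FPKM against 20.5 and 19.0 FPKM. Both rose, by log2 values of 0.62 and 0.57. CRELD2, DNAJB11 and HYOU1 rose by 0.56, 0.50 and 0.32, and HYOU1, the large Hsp110-type exchange factor, had the smallest rise among these 11 chaperones.

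The membrane lectin CANX and the glycan sensor UGGT1 went the other way. Calnexin does at the membrane what calreticulin does in the lumen, and UGGT1 re-glucosylates misfolded glycoproteins so that both lectins bind them again. CANX was at 247 FPKM in both control libraries and at 228 and 218 FPKM with NAT10 siRNA, a log2 change of -0.14 ± 0.04 (SE; limma adjusted p = 0.0275). UGGT1 fell from 11.6 and 11.0 FPKM to 9.43 and 9.26 FPKM (log2 change -0.25 ± 0.05 SE, limma adjusted p = 0.0114). The call for CANX was lost when control replicate 2, its replicate 3 or NAT10-si replicate 3 was left out (limma adjusted p = 0.134, 0.133 and 0.0703) and when low genes were kept in the adjustment, without a filter (adjusted p = 0.0973). UGGT1 lost its call without control replicate 2 (limma adjusted p = 0.0689). DNAJC10, a J-domain reductase, was the only chaperone that did not pass, at 4.89 and 5.08 FPKM against 5.43 and 4.98 FPKM, with overlapping arms.

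The unfolded protein response is known to act through promoters, so promoter windows were searched for its elements. RefSeq (GRCh38.p14) gave windows of 300 bases, 250 before and 50 after the annotated start, for 36 of the 39 members. The ER stress response element, ERSE, was searched as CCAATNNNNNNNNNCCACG and its second form, ERSE-II, as ATTGGNCCACG, on both strands. Either form lay in the windows of 11 of the 36 members (30.6%), and in those of 44 of 27305 genes with a window (0.161%). The element was first described in promoters of such chaperone genes, so this share is not independent of the choice of members. The 5 windows below belong to the members with a match that rose most. They are written 5′ to 3′ on the strand of the gene, with the matched element in capitals, and cover chr9:125241294-125241593, minus strand (HSPA5), chr16:56931892-56932191, plus strand (HERPUD1), chr19:12938359-12938658, plus strand (CALR), chr22:21642052-21642351, plus strand (SDF2L1) and chr12:103930160-103930459, plus strand (HSP90B1).
HSPA5: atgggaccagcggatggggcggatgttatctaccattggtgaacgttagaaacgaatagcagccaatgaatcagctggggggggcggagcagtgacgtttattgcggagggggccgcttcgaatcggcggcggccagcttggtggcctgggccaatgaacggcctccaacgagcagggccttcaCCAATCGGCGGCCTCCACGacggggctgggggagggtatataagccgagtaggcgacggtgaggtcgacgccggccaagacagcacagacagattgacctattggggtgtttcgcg
HERPUD1: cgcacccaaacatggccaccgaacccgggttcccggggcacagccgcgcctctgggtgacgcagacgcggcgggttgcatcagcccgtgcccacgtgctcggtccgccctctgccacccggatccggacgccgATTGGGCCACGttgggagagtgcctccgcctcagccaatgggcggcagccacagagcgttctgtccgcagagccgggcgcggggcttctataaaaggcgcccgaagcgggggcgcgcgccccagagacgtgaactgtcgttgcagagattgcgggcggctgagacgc
CALR: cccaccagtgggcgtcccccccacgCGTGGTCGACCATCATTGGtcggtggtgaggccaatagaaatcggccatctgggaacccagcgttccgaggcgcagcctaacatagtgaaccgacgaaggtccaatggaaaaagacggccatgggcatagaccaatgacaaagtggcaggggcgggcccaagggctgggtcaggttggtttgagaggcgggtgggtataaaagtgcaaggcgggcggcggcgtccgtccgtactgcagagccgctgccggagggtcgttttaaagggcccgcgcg
SDF2L1: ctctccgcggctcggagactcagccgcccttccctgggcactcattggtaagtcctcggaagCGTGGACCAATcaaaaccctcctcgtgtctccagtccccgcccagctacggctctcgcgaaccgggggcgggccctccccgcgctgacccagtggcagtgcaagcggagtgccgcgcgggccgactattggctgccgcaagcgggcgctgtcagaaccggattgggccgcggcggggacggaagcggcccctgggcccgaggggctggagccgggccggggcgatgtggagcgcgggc
HSP90B1: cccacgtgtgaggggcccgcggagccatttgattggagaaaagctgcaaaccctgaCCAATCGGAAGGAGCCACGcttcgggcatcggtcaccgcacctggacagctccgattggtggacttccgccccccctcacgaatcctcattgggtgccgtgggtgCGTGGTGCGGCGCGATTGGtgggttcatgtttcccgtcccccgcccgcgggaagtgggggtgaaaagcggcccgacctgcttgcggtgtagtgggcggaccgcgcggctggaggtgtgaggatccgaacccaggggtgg
HSPA5, PDIA6, XBP1, CANX, CALR, CRELD2, ERO1B and HSP90B1 held ERSE, HSP90B1 at 2 places, and 27 of 35116 windows did (0.0769%). PDIA6 held it in the window chr2:10812736-10813035 but not in chr2:10832436-10832735. XBP1 held it in chr22:28800520-28800819 but not in chr22:28800028-28800327. Only exact matches were counted, so near matches are left out. HERPUD1, SDF2L1 and HYOU1 held ERSE-II, HYOU1 at 2 places, and 19 of 35116 windows did (0.0541%). The match of HSPA5 began 66 bases before the annotated start, and that of HERPUD1 117 bases before it.

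Of the 11 members with either form, all tested, 10 rose and 1 fell, and the median log2 change was 0.56. The member that fell was CANX, whose single element falls within 3 of its 4 annotated windows. Of the 25 members tested that have a window but no match, 13 rose and 4 fell, and the median was 0.19. DNAJB9 and MANF, with the largest changes among them, had no match to either form in this window. The core of a further element, UPRE (TGACGTGG), lay in the windows of DNAJC10, HYOU1 and VCP, and in 0.729% of all windows. In HYOU1 it overlapped one of the ERSE-II matches. Outside the members, 18 genes with a match to ERSE or ERSE-II were tested, of which 7 rose and 4 fell, at a median log2 change of 0.02. A match says only that the letters are there and was not tested as a binding site. The element was described in such chaperone genes, and the members were chosen with earlier results of these data known. The counts of members with and without a match are therefore not independent of that choice, and no test was run between them.

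**Figure D3:**
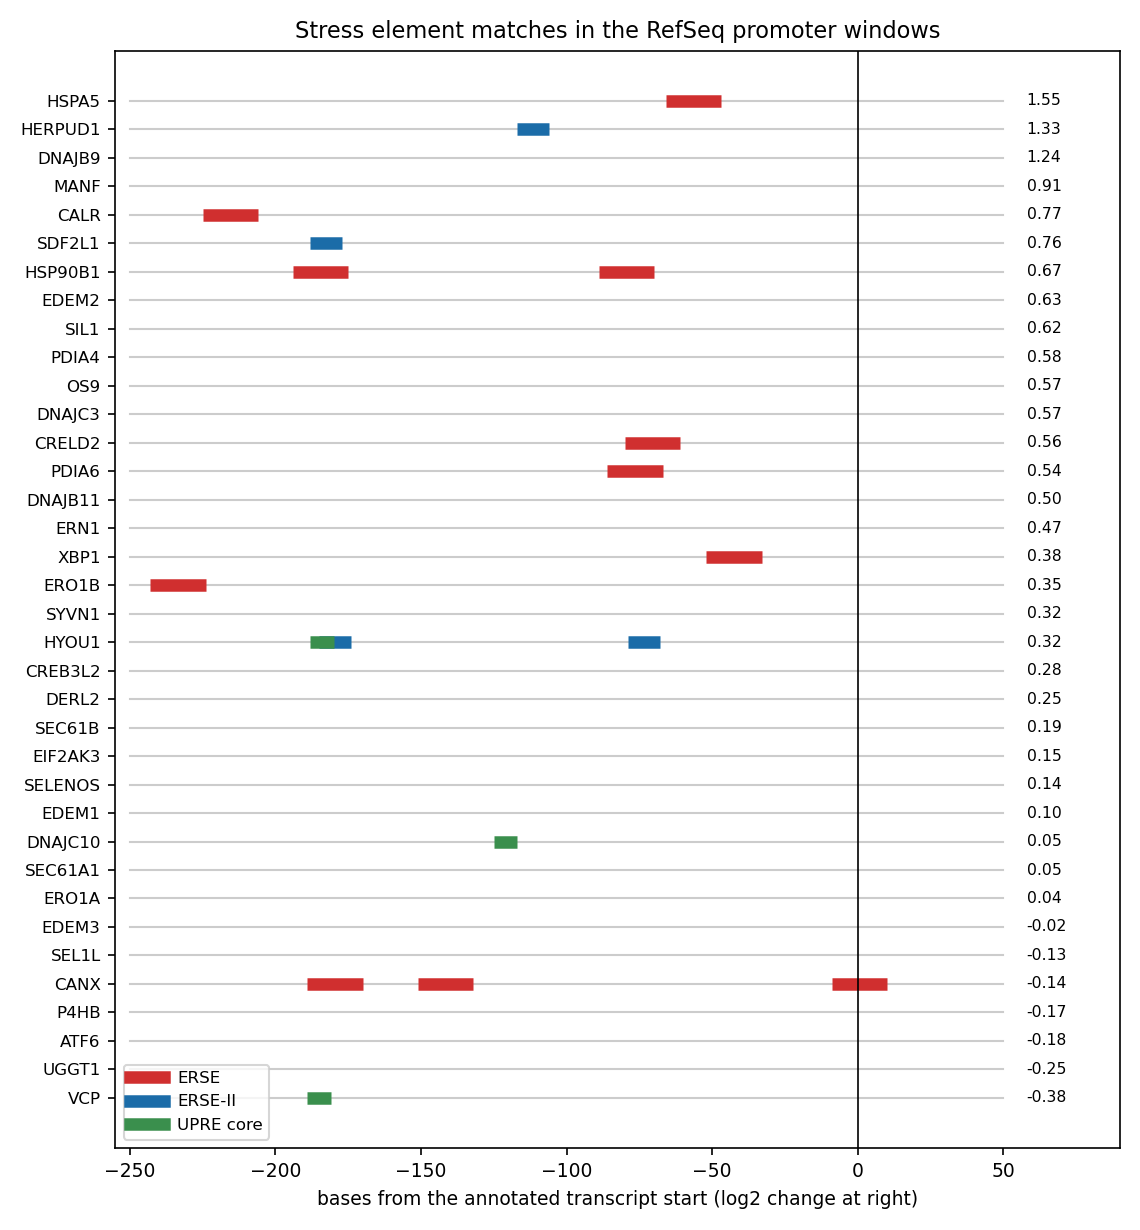
Matches to ERSE (red), ERSE-II (blue) and the UPRE core (green) in the RefSeq promoter windows of 36 ER genes, by distance from the annotated start in bases, ordered by log2 change (at right). Most matches lie in the upper part of the plot, among genes that rose, as 23 of the 36 did. The 3 marks of CANX are 1 element seen from 3 annotated starts.

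Among the 6 disulfide oxidoreductases 4 rose, 1 fell and 1 did not pass, with a median log2 change of 0.44. These enzymes form and rearrange disulfide bonds, and the ERO1 oxidases supply them with oxidising power. PDIA4 (ERp72) rose from 124 and 117 FPKM to 178 and 183 FPKM (log2 change 0.58 ± 0.04 SE, limma adjusted p = 0.000499). PDIA6 and PDIA3, the latter the partner of both lectins, each rose by 0.54. P4HB, the classical protein disulfide isomerase, fell from 100.3 and 98.0 FPKM to 87.3 and 88.6 FPKM (log2 change -0.17 ± 0.04 SE, limma adjusted p = 0.0136). P4HB lost its call without control replicate 2 or 3 (limma adjusted p = 0.0821 and 0.0528). The controls of these 4 abundant isomerases lay within 1 narrow band, between 98.0 and 124 FPKM, and with NAT10 siRNA PDIA3, PDIA4 and PDIA6 were at 171 to 183 FPKM while P4HB was below 89 FPKM.

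The oxidases were much lower in level. ERO1A was at 18.0 and 19.3 FPKM in control and at 19.3 and 19.2 FPKM in NAT10-si libraries, with overlapping arms (limma adjusted p = 0.515). ERO1B was at 1.03 and 1.04 FPKM against 1.64 and 1.53 FPKM, on 109 to 202 recovered reads per library, and was called higher (log2 change 0.35 ± 0.10 SE, limma adjusted p = 0.0287). That call did not survive leaving out control replicate 2, control replicate 3 or else NAT10-si replicate 2 (limma adjusted p = 0.112, 0.112 and 0.0856) or the absence of that filter (adjusted p = 0.0938).

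ERAD genes were divided. Of 12, DERL3 was not tested, 5 rose, 1 fell and 5 did not pass, with a median log2 change of 0.14. HERPUD1, a membrane protein that organises the ERAD ligase complex, rose from 10.3 and 10.4 FPKM to 27.4 and 27.9 FPKM (log2 change 1.33 ± 0.04 SE, limma adjusted p = 0.000113). EDEM2, which takes part in trimming mannose from misfolded glycoproteins, rose from 28.1 and 26.9 FPKM to 44.1 and 41.7 FPKM (log2 change 0.63 ± 0.05 SE, limma adjusted p = 0.000583), though it lies wholly within the read-through gene MMP24-AS1-EDEM2, whose reads may be mixed with its own. OS9, the lectin that hands trimmed glycoproteins to the ligase, rose from 43.7 and 44.3 FPKM to 65.5 and 66.3 FPKM (log2 change 0.57 ± 0.04 SE, limma adjusted p = 0.000381). The ligase gene itself, SYVN1 (HRD1), rose by 0.32, and DERL2, a channel component, by 0.25. The DERL2 call was lost when either control library or NAT10-si replicate 3 was left out (limma adjusted p = 0.0714, 0.0577 and 0.0561).

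VCP, the ATPase that pulls ERAD substrates out of the membrane and also serves many tasks in the cytosol and nucleus, fell from 129 and 126 FPKM to 96.4 and 99.0 FPKM. Its log2 change was -0.38 ± 0.04 (SE; limma adjusted p = 0.00106), and among the 5 members that fell it was the only one whose call held without each library in turn. SEL1L, the adaptor of SYVN1, was at 9.55 and 9.39 FPKM against 8.57 and 8.50 FPKM, short of the threshold (limma adjusted p = 0.0651) but past it when voom was run on the recovered reads (adjusted p = 0.0179). DERL1 was at 17.6 and 17.7 FPKM against 15.8 and 16.6 FPKM (limma adjusted p = 0.0910, and 0.0375 by voom). EDEM1, EDEM3 and SELENOS had log2 changes of 0.10, -0.02 and 0.14 and did not pass. DERL3, a derlin known from secretory cells such as plasma cells, had 5, 1, 2 and 0 recovered reads in control replicates 2 and 3 and NAT10-si replicates 2 and 3, so no fold is given.

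Of the 5 sensors and membrane-bound or spliced factors 3 rose, 1 fell and 1 did not pass. Over all genes tested 27.9% were called higher and 27.9% lower. ERN1, which encodes the sensor IRE1, was at 1.54 and 1.57 FPKM in control and at 2.76 and 2.30 FPKM in NAT10-si libraries (log2 change 0.47 ± 0.10 SE, limma adjusted p = 0.0116). The call of ERN1 was lost without control replicate 2 or 3 (limma adjusted p = 0.0633 and 0.0564) and without the filter (adjusted p = 0.0583). XBP1, whose mRNA IRE1 cuts for splicing, rose from 18.9 and 19.3 FPKM to 25.1 and 25.5 FPKM (log2 change 0.38 ± 0.04 SE, limma adjusted p = 0.00144). The table has 1 value per gene, so spliced and unspliced XBP1 mRNA cannot be told apart. CREB3L2, a membrane-bound factor of the ATF6 type, rose from 4.15 and 4.22 FPKM to 5.25 and 5.32 FPKM, and the call was lost without control replicate 2 or 3 (limma adjusted p = 0.0672 and 0.0553).

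ATF6 fell from 8.45 and 8.33 FPKM to 7.23 and 7.39 FPKM (log2 change -0.18 ± 0.05 SE, limma adjusted p = 0.0325), and the drop was the least firm call among the members. It was lost without any 1 of the 4 libraries (limma adjusted p between 0.0759 and 0.138) and without the filter (adjusted p = 0.0565). EIF2AK3, which encodes PERK, was at 3.75 and 4.22 FPKM against 4.53 and 4.53 FPKM (limma adjusted p = 0.129, and 0.0301 by voom). Of the 2 members from the translocation channel 1 rose. SEC61B rose from 45.9 and 47.4 FPKM to 53.2 and 53.7 FPKM (log2 change 0.19 ± 0.04 SE, limma adjusted p = 0.0117), a call lost without control replicate 2 (adjusted p = 0.0671). SEC61A1, the pore subunit, was at 104 and 102 FPKM against 107 and 106 FPKM (limma adjusted p = 0.339).

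In sum of levels, the 39 genes made up 2499 and 2516 FPKM of the control libraries and 3825 and 3901 FPKM of the NAT10-si libraries, or 0.798% of all FPKM in each control library and 1.23% and 1.22% in the NAT10-si libraries. CALR, HSP90B1, HSPA5 and CANX held 54.7% and 55.0% of the members' sum in control and 62.9% of it in both NAT10-si libraries. HSPA5 passed HSP90B1 to become the second most abundant member. DNAJB9 moved from place 36 to place 26 of 39 by mean level. ERAD genes summed to 273 and 270 FPKM against 298 and 300 FPKM, and chaperones to 1561 and 1583 FPKM against 2692 and 2757 FPKM. These sums weight abundant genes most and carry no test.

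**Figure D4:**
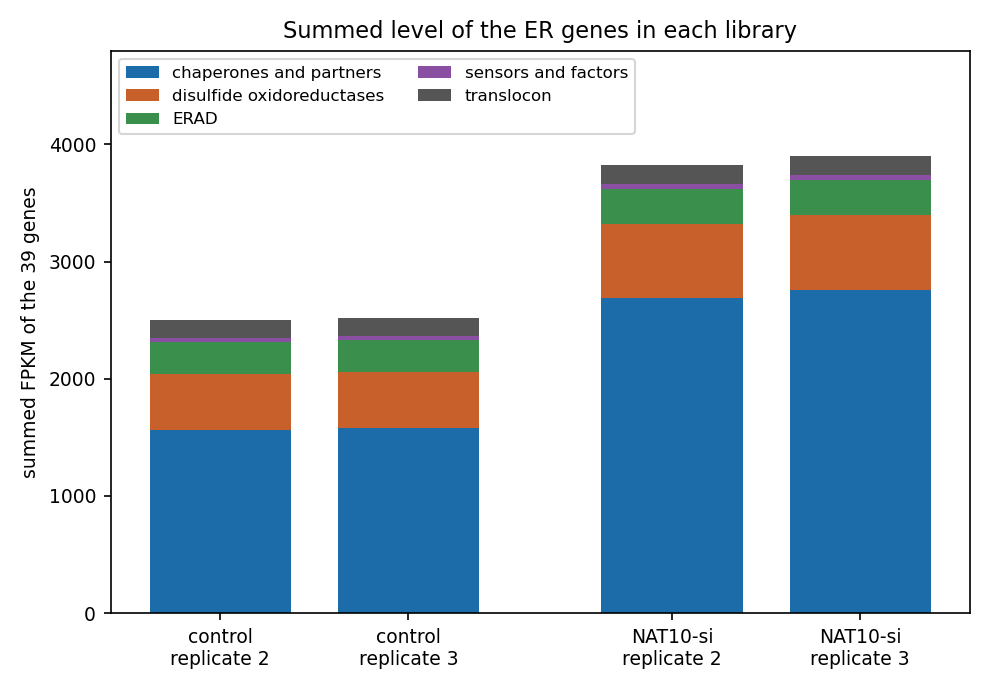
Summed FPKM of the 39 ER genes in each library, stacked by role. The sum is 2499 and 2516 FPKM in the control and 3825 and 3901 FPKM in the NAT10-si libraries, and chaperones with their partners make up most of the added height.

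Other genes of the pathway came from 6 lists of ER protein handling and signalling outside the members. Of 130 tested, 53 rose (40.8%), 28 fell and 49 did not pass, and their median log2 change was 0.10. Over all genes tested 27.9% rose and 27.9% fell. The share that rose was highest among genes of N-glycosylation and glucose trimming, where 11 of 16 rose and none fell. DDOST and RPN2, subunits of the oligosaccharyltransferase, rose by log2 values of 0.48 and 0.36, and the glucosidase MOGS by 0.54. Of 18 genes of translocation and signal peptide cleavage 8 rose and 2 fell, with SSR4, part of the translocon-associated complex, higher by 0.48 and SEC61A2, a second form of the pore subunit, by 0.40. SEC61G, the small channel subunit, rose by 0.31 and is named here to complete the channel, after its value was seen. Of 30 other folding genes 14 rose and 7 fell. ERP44, which retains ERO1 enzymes in the early secretory pathway, rose from 13.2 ± 0.533 to 24.3 ± 0.790 FPKM (SD, n = 2), PDIA5 rose by 0.82, and MESD, the chaperone of LDL receptor relatives, fell by 0.83 on the log2 scale.

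Of 29 other ERAD genes 8 rose (27.6%) and 11 fell, and the median was -0.04. Over all genes tested 27.9% were called higher and 27.9% lower, shares beside which the next lists also stand. NPLOC4, which forms the cofactor of VCP that binds ubiquitin chains, fell from 18.2 ± 0.412 to 10.6 ± 0.162 FPKM (SD, n = 2), and FAF2, which recruits VCP to the ER membrane, from 30.9 ± 0.374 to 20.1 ± 0.401 FPKM (SD, n = 2). UBE2J2, a ubiquitin-conjugating enzyme of the ER, fell by 0.45 on the log2 scale. UFD1, the cofactor partner of NPLOC4, and YOD1, a deubiquitinase that works with VCP, rose by 0.19 and 0.44; both are named after their values were seen. Of 14 other signalling genes 2 rose and 5 fell. RTCB, the ligase that joins the exons of XBP1 mRNA, fell by 0.40, while ATF6B, the relative of ATF6, rose by 0.32 (limma adjusted p = 0.00215). Of 23 genes of ER exit and retrieval, the last of the 6 lists, 10 rose and 3 fell. LMAN2, a cargo lectin, rose by 0.51, and the coat receptors TMED10 and TMED2 fell by 0.47 and 0.37. In a separate list, of 20 genes of the PERK and ATF4 arm, 13 rose (65.0%) and 2 fell, at a median log2 change of 0.66. Over all genes tested 27.9% rose and 27.9% fell, at a median of 0.01. PPP1R15A, which brings the phosphatase back to eIF2 alpha, rose from 23.3 ± 1.86 to 90.1 ± 1.44 FPKM (SD, n = 2), and CEBPB rose by 1.82.

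The acRIP lists were searched for the same 39 identifiers. In the replicate round 29 members had a peak in the control list and 34 in the NAT10-si list, against 49.6% and 64.5% of all genes tested. Members are expressed above most genes, with a median of 18.8 FPKM beside 6.27 FPKM, and among the 2607 tested genes at or above that members' median 77.3% and 85.8% had a peak in these lists. The members' shares were 74.4% and 87.2% of 39, though many members lie below that level, so this is no comparison at matched level. The first round named few members: ERO1B in the control list, and ERO1A, MANF and SEC61A1 in the NAT10-si list, where 3.03% and 3.48% of all genes tested, and 5.37% and 6.18% of those at or above the members' median level, had a peak. No member was in both control lists, and ERO1A, MANF and SEC61A1 were in both NAT10-si lists. With 1 list per arm and round none of these counts has a test.

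**Figure D5:**
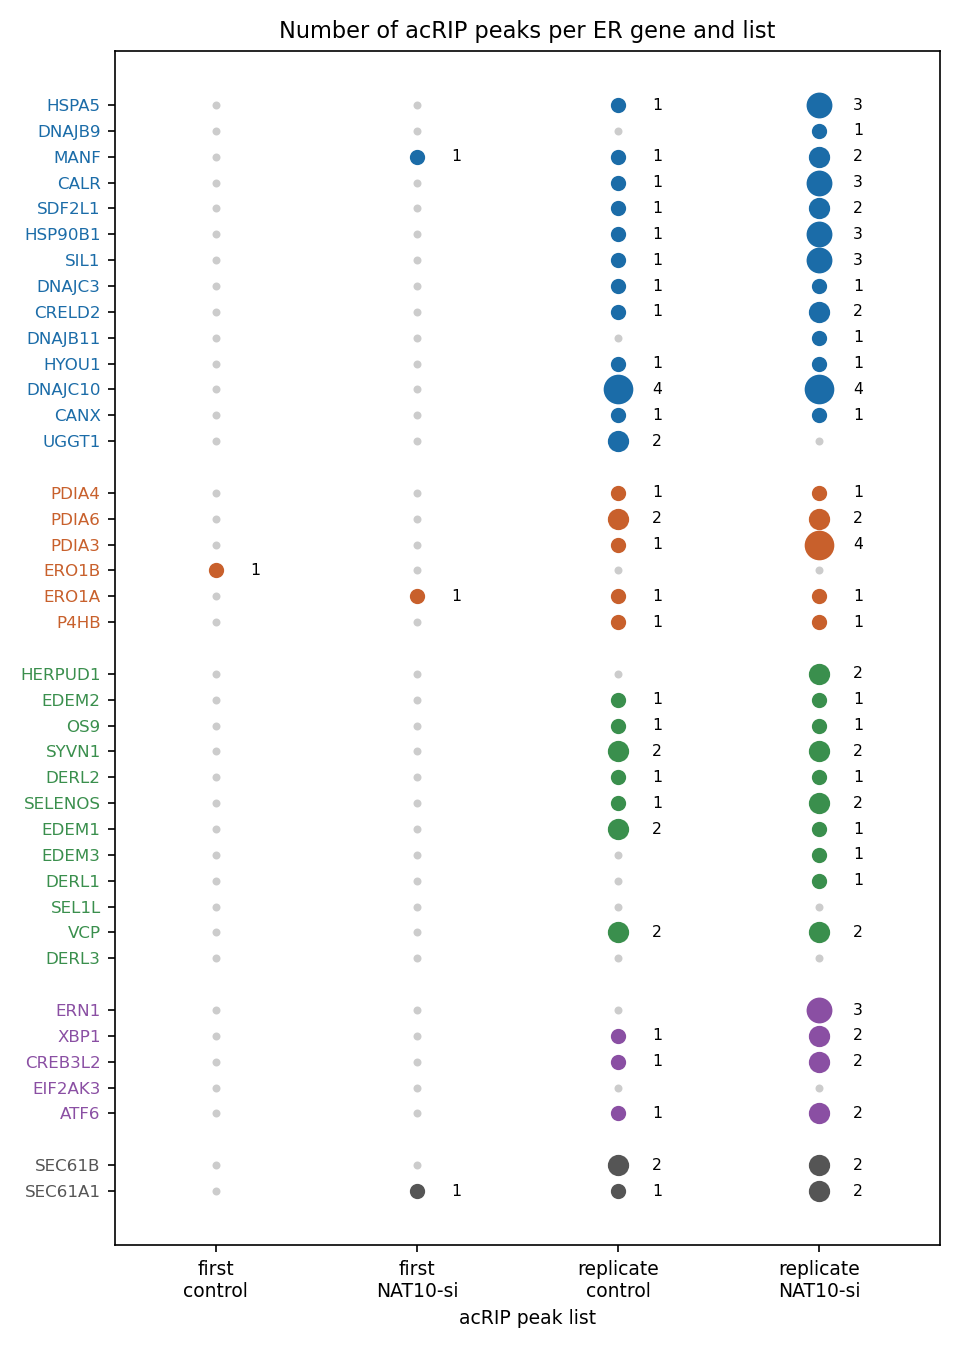
Number of acRIP peaks of each ER gene in the 4 lists, with larger points for more peaks and small grey points where a list names none. Both first-round columns hold 4 peaks in all, against 38 and 63 peaks in the replicate control and NAT10-si columns.

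In the replicate round 28 members had a peak in both arms, 1 only in the control list and 6 only in the NAT10-si list. Over all genes tested 43.9% were in both lists, 5.76% only in the control list and 20.6% only in the NAT10-si list, which is the longer one. The 6 were HERPUD1, DNAJB9, DNAJB11, ERN1, DERL1 and EDEM3. The first 4 were also called higher in RNA-seq, as were 24 of all 38 members tested, a similar share. UGGT1, called lower in RNA-seq, was the 1 member named only in the control list. How far the level of an mRNA sets whether a peak is called was not tested. Not every listed peak passed an authors' false discovery rate of 0.05: 8188 of 10253 control and 13113 of 16753 NAT10-si peaks did. At that rate 27 members were in both lists, 1 only in the control list and 5 only in the NAT10-si list, without EDEM3. At a rate of 0.01 these counts were 26, 1 and 5. SIL1 was then only in the NAT10-si list, and ERN1 no longer was. When both lists were held to equal length by the authors' p, 3 members were only in the NAT10-si list (HERPUD1, DNAJB11 and DERL1) and 3 only in the control list (UGGT1, ATF6 and CREB3L2). Of 38 control peaks in members, 32 had 1 base or more in common with a NAT10-si peak of the same gene, and 21 with at least 50% of each peak shared. SEL1L, EIF2AK3 and DERL3 were in no list.

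Peaks of the replicate round lay mostly near or beyond the 3′ end of the gene, in members as in other genes. Of the 38 control peaks 25 ended past the RefSeq gene end or at most 1000 bases before it (65.8%). Of the 63 NAT10-si peaks 38 did (60.3%). Among the members, HSP90B1 had the peaks that ran furthest past the gene end, in both lists. Counted in the same way over all peaks that overlap their own tested gene, the shares were 65.3% and 56.9%. The spans are those of GRCh38.p14, which 104 of the 105 member peaks overlapped, although the processing notes name hg19. Exons were not looked up, since only gene spans were at hand. Folds below are the authors' own, each of value only within its list. The single HSPA5 peak of the control list, at chr9:125236195-125236613 on the minus strand, had a fold of 16.0. The NAT10-si list held 3 HSPA5 peaks. The one that overlapped the control peak, with the same lowest coordinate, had a fold of 32.3 in its own list. The one at the gene end had 49.1 and the remaining one 1.28. HSPA5 and HERPUD1 were picked for this after their RNA values were known. HERPUD1 had 2 peaks in the replicate NAT10-si list, at chr16:56943395-56943634 and, at the gene end, chr16:56944563-56944863.

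MANF was named near the 5′ end of the gene in the first round and at the 3′ end in both lists of the replicate round, with a further NAT10-si peak between. Its first NAT10-si peak lay at chr3:51385344-51385522, 53 bases from the RefSeq gene start, whereas the replicate control peak lay at chr3:51389100-51389308, 89 bases from the gene end. SEC61A1 was the case where rounds met at 1 place: the first NAT10-si peak at chr3:128071444-128071623 began at the same base as a replicate NAT10-si peak and overlapped the replicate control peak at chr3:128071504-128071683. This stretch also belongs to the region where the RefSeq spans of SEC61A1 and RUVBL1 share 6899 bases. ERO1A had its first NAT10-si peak at chr14:52642581-52642701 and its replicate control peak at chr14:52640156-52640725, with no shared base. ERO1B was named once, in the first control list, as a peak of 4 blocks at chr1:236232831-236243425 with a fold of 811, in a gene of 1.03 FPKM in the control RNA-seq libraries. No source used here says whether counting used strand, and 20 members overlap another RefSeq gene, 9 of them a protein-coding one, so their values are less certain. The 1 member peak outside its RefSeq gene was a replicate NAT10-si peak of SIL1.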

How the data were processed

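RNA-seq and acRIP of UM-UC-3 cells were used. Tools listed in the submitters' processing notes, without role or order, are HTSeq 0.6.1, HISAT2 2.1.0 and bcl2fastq 2.19.1, with hg19 as the build. No source used here names the peak caller. The authors deposited 1 expression value per gene and library under a header without a unit, read here as FPKM because whole reads and whole gene lengths could be recovered from them. Per the file headers, a deposited peak carries the authors' p-value, fold enrichment (a ratio over input), and scores that are the log10 of p and of its false discovery rate; the arm and round of a list come from its name, and samples behind it are not listed. Peak starts count from 0 in the lists and are printed from 1. The labels' protocols describe the ac4C immunoprecipitation for the RNA-seq replicates too.

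Symbols matched 57532 of 58302 identifiers. Genes averaging 1 FPKM or more were fitted with limma-trend (limma 3.58.1, R 4.3.3) on log2(FPKM + 1), NAT10-si against control, with no block. Fold changes on this scale understate the change of low genes. Libraries of 14002 genes were simulated with 50 genes changed at each fold and a single assumed dispersion. There limma on log2(FPKM + 1) recovered 56.0% of 1.5-fold and 10.0% of 1.25-fold changes, with 10 false calls, and voom 88.0% and 60.0%. Small changes can thus be missed. In the real libraries 55.8% of genes were called, which makes the Benjamini-Hochberg cut less strict, so these shares do not measure the recovery there. Alternatives were a pseudocount of 0.1, no filter, median-ratio scaling, voom on recovered reads (a factor common to all reads of a gene is lost), a replicate block and leaving out each library; for peaks, stricter false discovery rates, lists of equal length and 50% overlap. Members and lists were chosen with earlier results of these data known. Named with values per library were the 12 largest called changes, every member called lower and the sensors; up to 4 genes stood for each other list, by adjusted p.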

Additional observations from a re-analysis of the deposited data

How the results depend on the processing

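Under 9 alternative settings no member's log2 change that was called changed sign. Of the 29 calls, 20 held under every setting, 19 of them higher, and VCP was the only lower one. The number of members called higher was 24, and 19 to 23 without 1 library. The number called lower was 5, and 1 to 4 without 1 library (1 without control replicate 2, 2 without control replicate 3, 3 without NAT10-si replicate 3); it was 3 with no filter on low values. Fits without 1 library had fewer samples, and the fit with no filter had more genes in the adjustment. What part either has in the lost calls was not tested. Median-ratio scaling moved the median of all genes by -0.00132 on the log2 scale and changed no member's call. With voom on recovered reads DERL1, EIF2AK3 and SEL1L also passed. Same-numbered libraries did not deviate together (Pearson r = 0.01 across 14004 genes), which does not show whether they were prepared together. With a replicate block 23 members were called higher and 4 lower, and ERO1B and ATF6 were no longer past the threshold (limma adjusted p = 0.0563 and 0.0587). Member peaks shared between the arms of the replicate round numbered 32, and 21 when at least 50% of each peak had to be shared. At a false discovery rate of 0.05, 30 of 33 control peaks in members were shared, and at 0.01, 29 of 32. ERO1B had the fewest recovered reads of the members tested, 109 to 202 a library, and DERL3 could not be tested.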

Other observations

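Heat shock genes of the cytosol, which answer to another stress factor, were split: of 14 tested, 6 rose and 6 fell, beside 27.9% of all genes tested that rose and 27.9% that fell. HSPA1B rose from 11.6 ± 0.0523 to 78.3 ± 3.70 FPKM (SD, n = 2) and DNAJB1 from 32.4 ± 1.92 to 107 ± 5.04 FPKM (SD, n = 2), while HSP90AB1, the constitutive cytosolic Hsp90, fell from 725 ± 4.45 to 507 ± 11.1 FPKM (SD, n = 2). HSPA1A and HSPA1B are near-identical copies, so how reads were shared between them is uncertain. Of 8 tested mRNAs reported as cut by IRE1, 4 rose and 1 fell; SPARC and COL6A1 rose by log2 values of 0.57 and 0.58 and SCARA3 fell by 0.34. Among 6 receptors of ER-phagy 2 rose and 2 fell, with ATL3 lower by a log2 change of -0.56 and CALCOCO1 higher by 0.67.

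Outside the members, 33 genes had a match to either form of the ER stress response element in a promoter window. Of the 18 tested, 7 rose and 4 fell, at a median log2 change of 0.02, beside 27.9% of all genes tested that rose and 27.9% that fell. SERP1, which guards nascent membrane proteins, and NUCB1 were among those that rose, by 0.25 and 0.55, and SHCBP1 fell by 0.78; these were singled out after their values were seen.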
